A study of Mus musculus with 6 samples.

Results

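The genes described here are 43 genes of S phase and DNA replication, measured in HL-1 cardiomyocytes with and without oxygen limitation. They were taken as a list of gene symbols, and each was represented by the probe set annotated to that symbol alone with the highest mean log2 signal over all arrays. All 43 had such a probe set, of 18193 genes that had one on the array, and all 43 lay above the filter on dim probe sets, which 11332 genes passed. HL-1 is a mouse cell line from an atrial tumour that arose under the SV40 large T antigen driven by the promoter of atrial natriuretic factor, and it beats and divides in culture. Confluent HL-1 cells were kept for 8 hours at 1% oxygen (hypoxia, 3 arrays) or at 21% oxygen (normoxia, 3 arrays), with no drug or further genetic change named for either group, and total RNA was measured on one-colour Affymetrix arrays. Values are the deposited MAS5 signals, 1 per probe set and array, on a linear scale. The labels do not say that the arrays came from separate cultures, so every p-value here measures no more than array-to-array spread, which may be technical.

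Before S phase, the origin recognition complex, CDC6 and CDT1 load the ring-shaped helicase of the MCM2 to MCM7 subunits onto DNA, a step called licensing that geminin blocks once replication has begun. CDC45 and the GINS complex turn the loaded ring into an active helicase, primase and polymerase alpha start each strand, and polymerases delta and epsilon extend it on the sliding clamp PCNA. Many of these genes are transcribed through E2F factors, which the retinoblastoma protein restrains until cyclin-dependent kinases inactivate it, and large T antigen is known to bind that protein. The comparison asks whether the transcripts of this machinery differed after the hours at low oxygen.

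None of the 43 genes passed the test. With limma and Benjamini-Hochberg adjustment over all probe sets tested, 0 were higher and 0 were lower in hypoxia at an adjusted p under 0.05, where 0.662% of all genes tested were called higher and 0.0882% lower. At an unadjusted p under 0.05 the count was also 0 of 43, against 12.4% of all genes tested. The log2 fold changes of hypoxia over normoxia lay between -0.43 for Pold1 and 0.48 for Fen1, or 0.741-fold to 1.39-fold. Their median was 0.01, with 25 genes above 0 and 18 below, and the median over all genes tested was -0.04. Centring each array on its median signal raised both medians, to 0.12 and 0.07, and put 30 of the 43 genes above 0. The same arrays did register the treatment. Slc2a1, which encodes the glucose transporter GLUT1 and is a known target of the hypoxia-inducible factor, rose 4.22-fold (means 2272 ± 326 and 538 ± 66.6, where ± is the SD over n = 3 arrays here and below; limma adjusted p = 0.00038). The other 5 genes of that check, Ldha, Pdk1, Egln3, Bnip3 and Ak4, rose 1.74-fold to 18.1-fold. In these bulk samples, a change in the share of cells in S phase and a change in each transcript per cell could not be told apart.

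The intervals around these estimates were mostly narrow. The standard error (SE) of the log2 fold change ranged from 0.10 to 0.30 among the 43 genes, with a median of 0.15 against 0.20 over all genes tested. For 29 of the 43 the 95% interval of the difference, not adjusted for the number of genes, lay within 0.5 log2 of 0, which is a change of 1.41-fold either way, while 24.3% of all genes tested had so narrow an interval around 0. For 41 of 43 it lay within 1 log2, a 2-fold change, against 74.2% of all genes. The exceptions were Fen1, whose interval reached 1.10, and Tyms, whose interval reached 1.04. In 14 genes, among them Mcm2, Pold1 and Ccne2, the interval extended past 1.41-fold in at least 1 direction, so a change of that size was not excluded. All these intervals are those of the representative probe sets. The largest estimates from further tested probe sets of the 29 genes were -0.64 (SE 0.30) for Dut, -0.46 (SE 0.20) for Rfc2 and -0.45 (SE 0.22) for Ccne1. For these genes too a change past 1.41-fold was not excluded. The comparisons with all genes were not matched for signal, with which the fitted spread varies. A stricter filter at the 75th percentile of signal kept 41 of the 43 genes and 6757 of all 11332 tested.

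**Figure D1:**
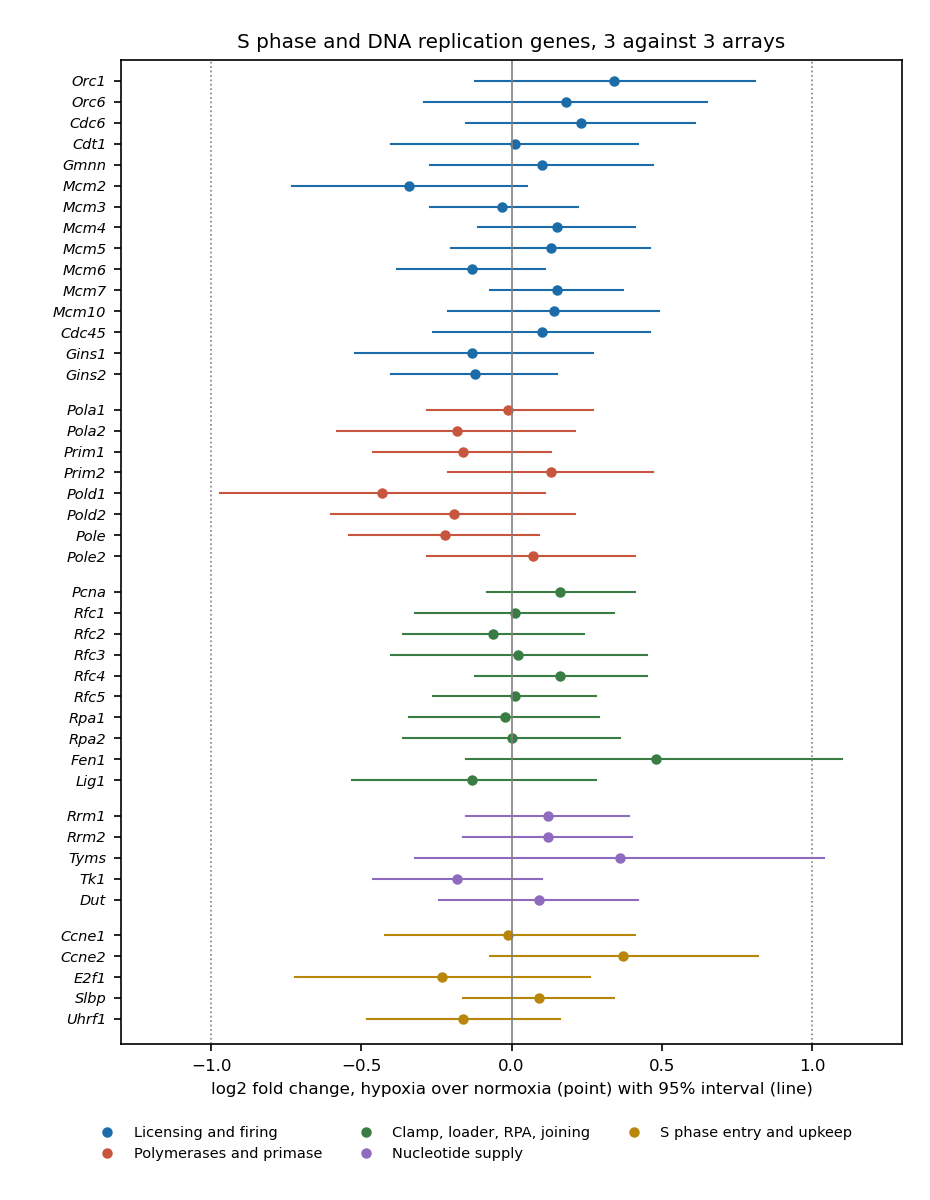
Log2 fold change of hypoxia over normoxia (x axis) for each of the 43 genes (rows, coloured by role), from 3 against 3 arrays. Points are the limma estimates and lines their 95% intervals, with dotted lines at 1 log2 either way. Every interval includes 0, and those of Fen1 and Tyms alone reach past a dotted line.

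Groups of signals rarely lay apart. Of the 43 genes, 1 had all hypoxia arrays above all normoxia arrays, where this held for 8.16% of all genes tested, and 2 had them all below, where 9.91% did. The first was Mcm10, a scaffold of the replication fork, with signals of 117.6, 121.6 and 124.2 in hypoxia and 109.4, 107.7 and 113.1 in normoxia. Its other tested probe set pointed the other way, with a log2 fold change of -0.18 (SE 0.41). The 2 lower genes were Pole and Tk1, described with their groups. In all 3 genes the gap was small and the test was not passed.

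Licensing and helicase genes. E2F binding sites near the start are the sequence feature for which these genes are known, and 4 of them that carry one are shown here, chosen as the smallest p-values among the genes with a match. The sequences come from RefSeq (GRCm38.p6), 5′ to 3′ on the strand of the gene and only from the 250 bases before the annotated start, with the match in capitals and up to 40 bases on either side. Orc1 lies at chr4:108579387-108579453 (plus strand), Cdc6 at chr11:98907973-98908060 (plus strand), Mcm6 at chr1:128359706-128359855 (minus strand) and Mcm7 at chr5:138172001-138172088 (minus strand).
Orc1: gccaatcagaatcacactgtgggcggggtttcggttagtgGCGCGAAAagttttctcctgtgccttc
Cdc6: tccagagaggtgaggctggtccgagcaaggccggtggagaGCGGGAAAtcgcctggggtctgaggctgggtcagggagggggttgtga
Mcm6: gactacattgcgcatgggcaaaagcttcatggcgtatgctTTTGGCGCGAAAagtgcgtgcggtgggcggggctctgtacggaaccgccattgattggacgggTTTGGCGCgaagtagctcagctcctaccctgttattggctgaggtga
Mcm7: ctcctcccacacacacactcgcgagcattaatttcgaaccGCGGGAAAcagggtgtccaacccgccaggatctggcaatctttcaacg

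In Orc1, Cdc6 and Mcm7 the match is on the strand opposite to the gene, 27, 138 and 165 bases before the start. Mcm6 holds 3 matches, of which those at 110 and 106 bases before the start overlap on opposite strands and make up the longer capital run. The letters searched were TTTCCCGC, TTTCGCGC, TTTGCCGC and TTTGGCGC on both strands. Promoters were in the RefSeq table for 35 of the 43 genes, matched by symbol, with 41 starts. Of these 41 windows 8 (19.5%) held a match, against 1.86% of all 32851 windows of that length in the table. The genes were Orc1, Cdc6, Mcm5, Mcm6, Mcm7, Pola1, Rfc3 and Uhrf1, and their log2 fold changes ranged from -0.16 to 0.34, 5 of them above 0. A CCAAT box, the letters bound by NF-Y, was in 56.1% of the 41 windows and 33.8% of all windows. The core letters of the hypoxia response element, ACGTG or GCGTG on either strand, were in 61.0% and 38.6%, and the CHR letters TTTGAA in 9.76% and 16%. The 23 genes with the hypoxia core had log2 fold changes from -0.43 to 0.48, 12 of them above 0. The windows compared were not matched for base composition, and the differences between these shares were not tested. A match is a run of letters and not a bound site.

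Among these 15 licensing and helicase genes the median log2 fold change was 0.10, with 10 above 0. Of the origin recognition and loading factors in this group, Orc1, Cdc6 and Orc6 were on the higher side, but by little, and Cdt1 was at 0.01. Orc1, the ATPase subunit of the origin recognition complex, had signals of 82.0, 65.2 and 80.5 in hypoxia and 68.8, 49.8 and 61.5 in normoxia. The lowest hypoxia array lay under the highest normoxia array, so the groups overlapped. The log2 fold change of Orc1 was 0.34 (SE 0.21, adjusted p = 0.594), and a further probe set gave 0.66 with an SE of 0.40. Cdc6, the ATPase that brings the helicase to the origin, was at 0.23 (SE 0.17), and Orc6, another subunit of the recognition complex, at 0.18 (SE 0.21).

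Cdt1, the loading partner of CDC6, had signals of 2164.6, 2057.8 and 3247.8 in hypoxia and 2910.2, 2095.5 and 2317.2 in normoxia. One array of each group stood above the others, and the group means were nearly the same (2490 ± 658 and 2441 ± 421, log2 fold change 0.01, SE 0.18, adjusted p = 0.988). A further tested probe set of Cdt1 gave -0.19 (SE 0.16), and the sign of Cdt1 turned in 7 of 18 alternatives. The inhibitor of CDT1, geminin (Gmnn), was at 0.10 (SE 0.17), so neither side of this pair differed beyond the spread.

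By their representative probe sets the 6 subunits of the helicase ring were split, 3 above and 3 below 0. Mcm2 had the smallest unadjusted p of the 43 genes. Its signals were 875.1, 1073.5 and 822.7 in hypoxia and 899.3, 1317.2 and 1318.1 in normoxia. Normoxia replicate 1 lay among the hypoxia arrays and the other normoxia arrays above them all. The log2 fold change of Mcm2 was -0.34 (SE 0.17, adjusted p = 0.528), while its other probe set gave -0.08 (SE 0.13). Without normoxia replicate 1 the difference was -0.52 with an adjusted p of 0.148, and over all alternatives its adjusted p ranged from 0.144 to 0.853.

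Mcm7 went the other way, with signals of 2373.8, 2440.9 and 2221.1 in hypoxia and 2093.5, 2013.2 and 2229.1 in normoxia. The groups overlapped by a small margin, in hypoxia replicate 3 and normoxia replicate 3. Its log2 fold change was 0.15 (SE 0.10, adjusted p = 0.612), with 0.01, 0.02 and 0.19 from its other probe sets. The remaining subunits had log2 fold changes of -0.13 (Mcm6), -0.03 (Mcm3), 0.13 (Mcm5) and 0.15 (Mcm4). The other tested probe sets of Mcm5 were on the opposite side, at -0.08 and -0.14. Those of Mcm3 ranged from -0.29 to 0.06, and those of Mcm6 and Mcm4 gave -0.05 and 0.12. Subunits of a single ring thus had estimates of both signs, and none passed. The cofactors of the active helicase lay close to 0, at 0.10 for Cdc45, -0.13 for Gins1, -0.12 for Gins2 and 0.14 for Mcm10.

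Polymerases and primase. Of these 8 genes 6 were below 0, where 6300 of all 11332 genes tested were. Their median log2 fold change was -0.17, and 0 passed. The lean depended on scaling. After median centring the values ranged from -0.32 for Pold1 to 0.24 for Prim2, and Pola1 turned positive, at 0.10. Pold1, the catalytic subunit of polymerase delta, which copies the lagging strand, had signals of 371.0, 379.5 and 222.4 in hypoxia and 321.6, 484.9 and 493.0 in normoxia. Hypoxia replicate 3 and normoxia replicate 1 were the low arrays of their groups. The log2 fold change of Pold1 was -0.43 (SE 0.24, 95% interval -0.97 to 0.11, adjusted p = 0.561). A further probe set of Pold1 pointed the other way, at 0.16 (SE 0.23). Pold2, the second subunit of that enzyme, was at -0.19 (SE 0.18).

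Pole, the catalytic subunit of polymerase epsilon, which copies the leading strand, had signals of 263.1, 269.0 and 285.5 in hypoxia and 314.6, 289.5 and 353.2 in normoxia. Every hypoxia array lay below every normoxia array and the nearest of them were at 285.5 and 289.5. The log2 fold change was -0.22 (SE 0.14, adjusted p = 0.61). Pole2, the accessory subunit of the enzyme, was at 0.07 (SE 0.15).

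Prim1, the catalytic primase subunit that makes the RNA primers, had signals of 728.1, 645.6 and 752.7 in hypoxia and 899.2, 735.3 and 747.1 in normoxia. Normoxia replicate 1 stood above the others, and the remaining arrays overlapped (log2 fold change -0.16, SE 0.13, adjusted p = 0.696). A second probe set of Prim1 gave 0.00 (SE 0.14). The other members of the primase and polymerase alpha complex were at -0.01 for Pola1, its catalytic subunit, -0.18 for Pola2 and 0.13 for Prim2, the large primase subunit.

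Clamp, loader and fragment joining. Of these 10 genes 7 were above 0, and the median was 0.01. Pcna, the sliding clamp that holds polymerases on DNA, had signals of 4332.3, 3830.7 and 4673.3 in hypoxia and 4284.7, 3530.4 and 3646.5 in normoxia. Normoxia replicate 1 lay within the hypoxia range, and the means of 4279 ± 424 and 3821 ± 406 gave a log2 fold change of 0.16 (SE 0.11, 95% interval -0.08 to 0.41, adjusted p = 0.632). The 5 subunits of replication factor C, which opens the clamp and loads it, had log2 fold changes between -0.06 (Rfc2) and 0.16 (Rfc4), with Rfc1, Rfc3 and Rfc5 at 0.01, 0.02 and 0.01. All 5 intervals of these representative probe sets lay within 0.5 log2 of 0. Further probe sets of Rfc2 gave -0.46 (SE 0.20) and -0.22 (SE 0.27), and that of Rfc4 gave 0.32 (SE 0.17). Those of Rfc1 and Rfc3 lay between -0.01 and 0.18. Rfc4 had signals of 981.8, 783.3 and 867.8 in hypoxia and 740.9, 843.5 and 761.5 in normoxia, which overlapped (adjusted p = 0.681).

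Rpa1 and Rpa2, subunits of the protein that coats single-stranded DNA, were at -0.02 (SE 0.14) and 0.00 (SE 0.16). The signals of Rpa1 were 4124.3, 3715.0 and 5079.3 in hypoxia and 5018.4, 3755.8 and 4344.4 in normoxia. Hypoxia replicate 3 and normoxia replicate 1 were its high arrays, and the rest were mixed between the groups (adjusted p = 0.962).

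Fen1, the nuclease that trims the flaps of Okazaki fragments, showed the largest estimate of the 43 genes and one of the widest spreads. Its signals were 619.6, 566.8 and 1034.2 in hypoxia and 727.4, 360.1 and 516.2 in normoxia. Hypoxia replicate 3 was the highest array and normoxia replicate 1 came next, above both other hypoxia arrays. The log2 fold change of 0.48 (SE 0.28, 95% interval -0.15 to 1.10, adjusted p = 0.582) came from a probe set whose name marks it as liable to cross-hybridise, and the other probe set gave 0.16 (SE 0.16). Lig1, the ligase that seals the trimmed fragments, was at -0.13 (SE 0.18), on the opposite side of 0 from its partner in the same step.

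**Figure D2:**
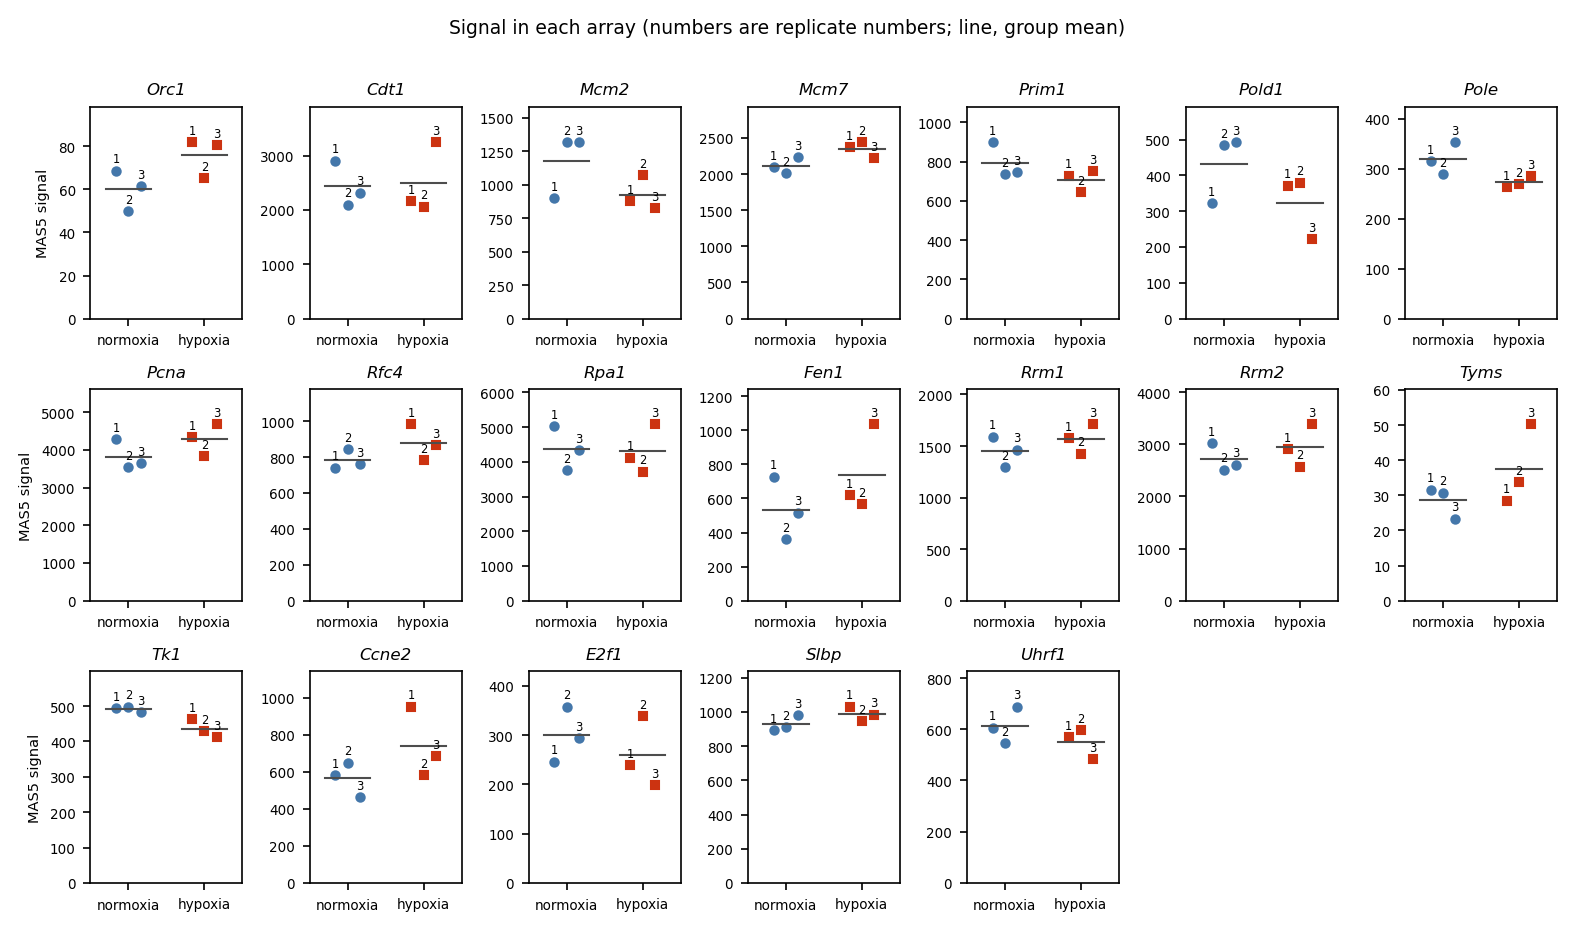
MAS5 signal (y axis, linear and starting at 0, scaled separately for each gene) of 19 genes in the 3 normoxia arrays (blue circles) and the 3 hypoxia arrays (red squares), numbered by replicate, with a line at each group mean. In Pole and Tk1 all hypoxia arrays lie below all normoxia arrays. The groups overlap in the others, and hypoxia replicate 3 and normoxia replicate 1 are the high arrays of their groups for Fen1, Cdt1 and Rpa1 and the low ones for Pold1, Mcm2 and E2f1.

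Nucleotide supply. Ribonucleotide reductase makes the deoxynucleotides for S phase and needs oxygen to form the radical of its small subunit, RRM2. Its transcripts were little different. Rrm2 had signals of 2910.8, 2571.8 and 3381.0 in hypoxia and 3018.1, 2513.4 and 2608.6 in normoxia. The groups overlapped, with hypoxia replicate 3 above all normoxia arrays and normoxia replicate 2 below all hypoxia arrays. The log2 fold change was 0.12 (SE 0.12, 95% interval -0.16 to 0.40, adjusted p = 0.762). The probe set, like those of Fen1, Mcm5 and Ccne1, has a name that marks it as liable to cross-hybridise. Other probe sets of Rrm2 gave 0.01 and 0.09. Rrm1, the large subunit, had signals of 1579.5, 1427.6 and 1710.2 in hypoxia and 1590.7, 1293.7 and 1464.8 in normoxia. The estimate was again 0.12 (SE 0.12, adjusted p = 0.757).

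Tk1, the thymidine kinase that salvages thymidine in S phase, had signals of 463.9, 428.5 and 412.3 in hypoxia and 493.3, 498.6 and 482.9 in normoxia. The hypoxia arrays were all lower, and the normoxia arrays lay close together (435 ± 26.4 against 492 ± 7.99). Its log2 fold change was -0.18 (adjusted p = 0.639), with an SE of 0.12 after limma drew the gene's spread towards that of genes with a like signal.

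Tyms, which encodes thymidylate synthase, had low signals of 28.5, 33.8 and 50.2 in hypoxia and 31.6, 30.8 and 23.4 in normoxia. The groups overlapped, hypoxia replicate 3 stood above the rest, and the SE was the largest of the 43 (log2 fold change 0.36, SE 0.30, adjusted p = 0.702). A second probe set gave 0.01 (SE 0.41), and a probe set annotated to both Tyms and its pseudogene was counted for neither. Dut, the enzyme that keeps uracil out of DNA by breaking down dUTP, was at 0.09 (SE 0.15), with -0.64 (SE 0.30, adjusted p = 0.487) from its other probe set.

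Entry into S phase and the upkeep of new chromatin. Cyclin E drives the start of S phase. Ccne2 had signals of 951.1, 581.5 and 685.1 in hypoxia and 581.5, 649.0 and 460.8 in normoxia. Hypoxia replicate 1 alone stood well above the other group, and the lowest hypoxia signal equalled one of the normoxia signals. The log2 fold change was 0.37 (SE 0.20, 95% interval -0.07 to 0.82, adjusted p = 0.54). Ccne1, the other E-type cyclin, was at -0.01 (SE 0.19), while its second probe set gave -0.45 (SE 0.22, adjusted p = 0.51).

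E2f1, the activating E2F factor that is itself an E2F target, had signals of 239.2, 337.9 and 198.8 in hypoxia and 246.1, 357.7 and 294.1 in normoxia. The groups overlapped over most of their range (log2 fold change -0.23, SE 0.22, adjusted p = 0.739). Slbp, which binds the stem-loop of replication-dependent histone mRNAs, had signals of 1031.7, 945.6 and 983.8 in hypoxia and 892.0, 911.8 and 981.0 in normoxia, with overlap in the highest normoxia array (0.09, SE 0.11, adjusted p = 0.801). Uhrf1, which brings the maintenance methyltransferase to newly copied DNA, had signals of 568.3, 595.1 and 483.2 in hypoxia and 606.2, 546.1 and 688.5 in normoxia. They overlapped too (-0.16, SE 0.14, adjusted p = 0.722).

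Further probe sets of these genes gave 0 calls too. The 43 genes had 95 probe sets with 1 symbol, of which 80 lay above the filter. Of the 37 tested besides the representative ones, 0 passed, and 1 had an unadjusted p under 0.05. By representative probe sets 12.4% of all genes tested had such a p. That 1 was a cross-hybridising probe set of Rfc2 (log2 fold change -0.46, SE 0.20, limma adjusted p = 0.454). The sign matched that of the representative probe set for 27 and was opposite for 10, such as those of Pold1, Cdt1 and Dut.

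Although the groups did not separate, arrays of different groups shared a pattern of deviations across the genes. Each array's deviation from its own group mean was taken for each gene. Over the 43 genes these deviations in hypoxia replicate 3 and normoxia replicate 1 had a correlation of 0.82, against 0.38 over all 11332 genes tested. Hypoxia replicate 2 and normoxia replicate 1 were opposed, at -0.82 and -0.34. Both pairs were picked as the extremes. The pattern was not limited to them. Hypoxia replicate 2 had correlations of 0.60 and 0.62 with normoxia replicates 2 and 3 (0.25 and 0.15 over all genes tested). Hypoxia replicate 3 had -0.66 and -0.54 with these (-0.28 and -0.17 over all genes tested). Over the 43 genes hypoxia replicate 1 had correlations of -0.13, 0.19 and -0.01 with normoxia replicates 1, 2 and 3. The median SE was 0.15 for the 43 genes and 0.20 for all genes tested, so the 2 sets are not like for like. These are correlations across genes, which are not independent replicates, the 3 deviations of a group sum to 0, and the arrays carry different replicate numbers. In hypoxia replicate 3 and normoxia replicate 1, 20 of the 43 genes were above the mean of their group on both arrays and 16 below on both.

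The genes that were high on both arrays included Fen1 (0.54 and 0.50 log2 above the group mean), Cdt1 (0.41 and 0.27), Gins1 (0.22 and 0.31), Orc6 (0.22 and 0.45) and Rpa1 (0.25 and 0.21). Those that were low on both included Pold1 (-0.50 and -0.40), E2f1 (-0.34 and -0.27), Pold2 (-0.28 and -0.27), Lig1 (-0.21 and -0.37) and Mcm2 (-0.16 and -0.37). Genes of one process thus stood on both sides, Fen1 with its partner Lig1 opposite, and Mcm5 (0.25 and 0.15) opposite Mcm2. What the 2 arrays share was not tested. With both left out, a setting chosen after the data were seen, 0 of the 43 genes passed (smallest adjusted p = 0.144, Mcm2). In that setting 3 of the 43 had an unadjusted p under 0.05, where 1930 of all 11319 genes tested did. Of all genes 185 were called higher and 87 lower.

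**Figure D3:**
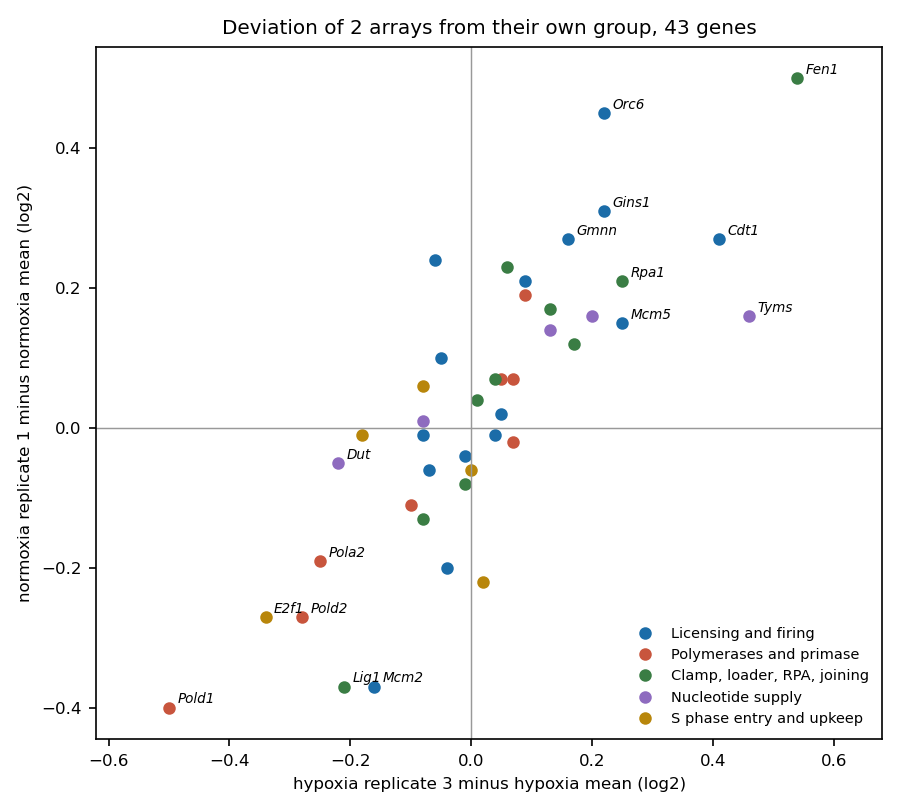
Deviation of hypoxia replicate 3 from the hypoxia mean (x axis) and of normoxia replicate 1 from the normoxia mean (y axis), both in log2, for the 43 genes, coloured by role, with the genes farthest from 0 named. The points run from Pold1 at the lower left to Fen1 at the upper right, with a correlation of 0.82 across genes.

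Other genes of the cell cycle, in 7 further lists, gave the setting. Of their 139 tested genes 1 rose and 0 fell, a share near the 0.662% called higher and 0.0882% called lower among all genes tested. The one that rose was Cdkn1a, the inhibitor p21 of the kinases that start S phase, with signals of 1945.5, 2156.8 and 1407.0 in hypoxia and 865.9, 986.7 and 738.0 in normoxia. All hypoxia arrays lay above all normoxia arrays (a log2 fold change of 1.08 with an SE of 0.17, or 2.11-fold, adjusted p = 0.0262). Leaving out any of 3 arrays ended the call: hypoxia replicate 1 gave an adjusted p of 0.189, its replicate 2 gave 0.107 and normoxia replicate 3 gave 0.144. A variance model without a trend ended it too (adjusted p = 0.19). For Cdkn1a the log2 fold change stayed between 0.95 and 1.26 over the 18 alternatives, those that ended the call included. The other CDK inhibitors did not pass, among them Cdkn1c at -0.39 and Cdkn2c at -0.28 (adjusted p = 0.448 and 0.429).

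Further origin and fork factors had a median log2 fold change of 0.00 over 32 genes, 16 above 0, and 0 passed. Mcm8, a paralog of the ring subunits that works in repair, was at 0.43 (adjusted p = 0.409), Top2a, the topoisomerase that untangles sister chromatids, at 0.30 (0.35) and Gins4 at 0.29 (0.467). In further nucleotide supply the median was -0.18 over 15 genes, and 0 passed. Of the 15, 12 were negative, where 6300 of all 11332 genes tested were. Ppat, the first enzyme of purine synthesis, was at -0.53 (188.1, 188.7 and 184.7 in hypoxia and 240.7, 324.0 and 253.4 in normoxia, adjusted p = 0.247), Shmt1 at -0.32 and Paics at -0.23. Dck, the kinase that salvages deoxycytidine, was at 0.42 (adjusted p = 0.322). The 8 genes of chromatin assembly and methylation at the fork had a median of -0.01, from Dnmt1, the maintenance methyltransferase, at -0.33 to Asf1b, a histone chaperone, at 0.25.

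Among 26 tested regulators of the step from G1 to S the median was -0.03 and 0 passed. Rb1, which encodes the retinoblastoma protein, came nearest to passing in this list, with signals of 361.9, 378.8 and 391.1 in hypoxia and 272.7, 245.0 and 252.9 in normoxia. The groups did not overlap (log2 fold change 0.56, SE 0.13, adjusted p = 0.133). E2f5, an E2F factor that acts with the retinoblastoma family as a repressor, was at -0.69 (adjusted p = 0.328), and Ccna2, the cyclin of S phase and of G2, at 0.29 (0.362). The 18 replication checkpoint genes had a median of 0.02, with Chek2 at 0.40, Rad18 at 0.39 and Atrip at -0.83, all with an adjusted p of 0.402 or more.

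Genes of G2 and M phase, which act after S phase, were tested as a further list. Their median log2 fold change was 0.15, with 26 of 33 above 0, where 5032 of all 11332 genes tested were. In 11 of the 33 all hypoxia arrays lay above all normoxia arrays, where this held for 8.16% of all genes tested. The count at an unadjusted p under 0.05 was 7 of 33, where 12.4% of all genes tested had such a p, and 0 passed after adjustment. Bub1, a spindle checkpoint kinase, was at 0.55 (adjusted p = 0.185), Smc2, a condensin subunit, at 0.42 (0.313) and Mki67, the proliferation marker, at 0.38 (0.269). Smc4, the partner of SMC2 in condensin, was at -0.53 (adjusted p = 0.625), with 1278.7 in hypoxia replicate 3 against 3418.8 to 4166.4 on the other 5 arrays. The difference between these lists was not tested.

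**Figure D4:**
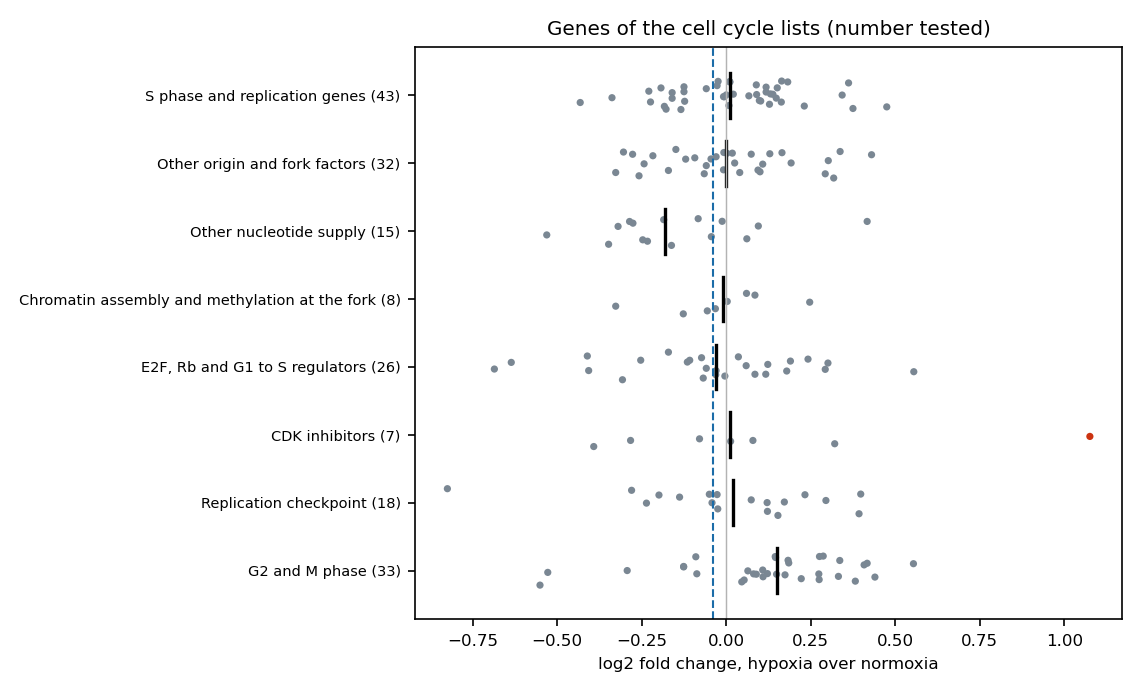
Log2 fold change of hypoxia over normoxia (x axis) for each tested gene of the 43 and of the 7 further lists (rows, with the number tested). Black bars are list medians, the dashed line is the median of all genes tested (-0.04), grey points did not pass and the red point, Cdkn1a, did. The 43 genes spread around a median of 0.01, and the G2 and M phase genes around 0.15.

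The array set held the transcripts of atrial muscle, with all 12 atrial cardiomyocyte markers above the filter. Of the markers of other cells, 2 of 7 for fibroblasts (Col1a1 and Col1a2) and 2 of 6 for endothelium (Kdr and Vwf) lay above it. For macrophages and leukocytes 3 of 5 did (Cd68, Adgre1 and Csf1r). Those below it included Pdgfra, Pecam1, Cdh5 and Ptprc. Cd68 had low signals of 39.3, 49.2 and 43.4 in hypoxia and 25.3, 18.8 and 16.5 in normoxia. They did not overlap, and the test was not passed (limma adjusted p = 0.157). The summed signals were 68.5 to 161 in hypoxia and 74.4 to 108 in normoxia for fibroblasts, 157 to 236 and 173 to 224 for endothelium and 90.0 to 134 and 72.6 to 115 for leukocytes, and the groups overlapped in each. Smooth muscle markers, of which Acta2 and Tagln are also made by immature cardiomyocytes, were above the filter for 4 of 5, with Myh11 below it. They summed to 12805 to 15757 in hypoxia and 12100 to 13947 in normoxia. Cnn1 and Tagln had all hypoxia arrays above all normoxia arrays, as 8.16% of all genes tested did. Neither passed (limma adjusted p = 0.347 and 0.283), and the groups overlapped for Acta2 and Myocd.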

How the data were processed

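RNA from HL-1 cells was measured on 6 arrays, 3 per group. The deposited values are the authors' MAS5 signal intensity of each of 45037 probe sets (MAS5 per the submitters' processing notes, its version not given in the sources used here). Every array had a trimmed mean of 99.5, so no scaling was added. Median signals were 15.0 to 19.0, and 0 of 15 array pairs were identical. The number of arrays limits the precision. The 10 values of 0 were set to 0.1 before taking log2. Probe sets above the median mean log2 signal (a geometric mean of 14.1) were kept, which left 22518. limma 3.58.1 in R 4.3.3 (lmFit, eBayes with trend, two-sided, no covariates) compared hypoxia with normoxia, with Benjamini-Hochberg adjustment over all probe sets kept and calls at an adjusted p under 0.05. The script was tested on simulated data. An exact permutation test of 3 against 3 cannot go below p = 0.1.

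Names came from a platform annotation of 2016 (34945 probe sets with 1 symbol, 932 with several, 9160 with none). A gene was its 1-symbol probe set with the highest mean log2 signal. Signals of every array are given for Cdkn1a, which passed, and, in each role group of the 43, for the 3 with the smallest p and the one with the highest mean signal; of other lists up to 4 genes are named by a like rule, and further values of single genes were chosen after they were seen. The members and lists were chosen with earlier results of these data known. Alternatives were other scalings, an offset of 2.9, other filters, variance models, a block for the replicate number, array weights, other probe set rules and leaving out arrays. The labels do not say whether replicate numbers pair the arrays. The correlations of same-numbered deviations were -0.076, 0.207 and -0.136. With 3 arrays per group, whose deviations sum to 0, these values cannot settle it.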

Additional observations from a re-analysis of the deposited data

How the results depend on the processing

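Over 18 alternatives, 0 of the 43 genes passed in any, including the fit with the replicate number as a block (0 higher and 0 lower, smallest adjusted p = 0.517); the smallest adjusted p of any was 0.144. The sign turned in at least 1 alternative for 15 of the 43 and in none for 28. Their median log2 fold change of 0.01 moved to 0.12 after median centring, which raised the median of all genes from -0.04 to 0.07, and ranged from 0.00 to 0.12 with 1 array left out, the highest without hypoxia replicate 2. Among the 139 other genes, the count of 1 higher became 0 without the variance trend and ranged from 0 to 1 with 1 array left out (0 when either of hypoxia replicates 1 and 2, or normoxia replicate 3, was dropped). The block kept that count at 1 (Cdkn1a, limma adjusted p = 0.00892). Whether same-numbered arrays share more than a number is not known. Over all genes, 75 were called higher and 10 lower; these counts were 113 and 4 after median centring, 7 and 2 without the trend, 197 and 80 with array weights, 61 and 2 with the block, and from 22 and 2 (without hypoxia replicate 1) to 101 and 27 (without normoxia replicate 1) with 1 array left out. With 3 arrays per group and SEs of 0.10 to 0.30 log2, differences inside the intervals given were not excluded.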
